A study of Rattus norvegicus with 6 samples.

Results

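Eogt, Lfng and St3gal4 encode 3 glycosyltransferases, the enzymes that build sugar chains on proteins and lipids, and they were read in the ventromedial hypothalamus (VMH) of rats exposed to predator odor (PO) or to a control odor. They are 3 of the 29039 features in the deposited count table, of which 26689 are Ensembl genes and 2350 are unannotated transcripts. The 3 genes were selected on their measured difference between the same 6 libraries, so their values in that contrast are a description with no test. The identifiers are ENSRNOG00000024533 for Eogt, ENSRNOG00000001250 for Lfng and ENSRNOG00000009850 for St3gal4.

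The animals were male Sprague Dawley rats about 10 months old with no genetic alteration stated. All 6 had been handled and given the control odor daily in the home cage for 2 weeks. On the test day 3 rats (libraries C2, C3 and C4) received a piece of clean towel and 3 (P8, P13 and P14) a piece of towel that ferrets had slept on, and the VMH was punched out of the frozen brain after 20 minutes. Poly-A RNA was sequenced as 1 library per rat, and between 15835375 and 20316213 reads per library were counted to genes. A punch holds neurons, glia and vessel cells together, so fewer cells of a type and less RNA per cell cannot be told apart in any value below. None of the 8 VMH neuron markers looked for is paired with an ID in the sources used here, so the tissue label could not be checked against them.

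Glycosyltransferases of the endoplasmic reticulum and Golgi move a sugar from a nucleotide donor to a growing chain. Eogt adds N-acetylglucosamine to serine or threonine of epidermal growth factor-like (EGF) repeats, the small folded modules of Notch receptors and many other cell surface and matrix proteins, inside the endoplasmic reticulum. Lfng, lunatic fringe, works in the Golgi and extends the O-linked fucose of EGF repeats with N-acetylglucosamine, which changes how Notch receptors respond to the Delta and Jagged ligands. St3gal4 caps galactose at the end of glycoprotein chains with sialic acid in alpha-2,3 linkage and is not specific to EGF repeats. Notch signaling is best known in the adult brain from neural stem cells, glia and vessels, and sialylated chains are abundant on neurons.

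Promoter windows of the 3 genes are printed first because they show how unlike the sequence around their starts is. RefSeq promoter windows of the GRCr8 build were used, each running from 250 bases before to 50 bases after an annotated start of transcription. These coordinates belong to GRCr8, not to the Rnor_5.0 build to which the reads were aligned. Capitals mark matches on either strand to 5 short motifs searched. They include TGGGAA (bound by RBPJ, the DNA-binding partner of Notch), the E-box CACGTG and TGANTCA. The others are the cyclic AMP response element TGACGTCA and the EGR motif GCGTGGGCG. TGANTCA is a loose form of the AP-1 motif that allows any base in the middle. All 3 genes lie on the minus strand, and the sequences run 5′ to 3′ along the gene. The Lfng window was chr12:19152869-19153168, that of Eogt chr4:131313194-131313493, and those of St3gal4 start 1 and start 3 were chr8:41723109-41723408 and chr8:41704761-41705060.
Lfng: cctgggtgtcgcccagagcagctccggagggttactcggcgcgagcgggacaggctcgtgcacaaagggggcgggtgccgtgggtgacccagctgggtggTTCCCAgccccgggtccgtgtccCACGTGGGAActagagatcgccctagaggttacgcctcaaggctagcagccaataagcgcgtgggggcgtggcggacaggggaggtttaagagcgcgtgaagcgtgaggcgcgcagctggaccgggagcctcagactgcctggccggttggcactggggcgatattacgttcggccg
Eogt: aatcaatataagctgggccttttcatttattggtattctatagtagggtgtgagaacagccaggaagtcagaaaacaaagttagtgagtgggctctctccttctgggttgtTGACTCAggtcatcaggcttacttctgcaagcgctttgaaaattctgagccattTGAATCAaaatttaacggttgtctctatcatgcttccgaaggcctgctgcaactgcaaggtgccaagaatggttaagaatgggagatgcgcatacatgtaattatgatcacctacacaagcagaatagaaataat
St3gal4 start 1: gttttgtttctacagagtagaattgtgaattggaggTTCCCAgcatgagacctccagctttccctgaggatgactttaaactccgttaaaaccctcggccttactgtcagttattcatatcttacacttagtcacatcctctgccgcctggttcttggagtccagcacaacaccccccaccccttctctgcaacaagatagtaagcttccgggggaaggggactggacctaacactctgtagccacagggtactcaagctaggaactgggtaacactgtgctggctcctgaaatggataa
St3gal4 start 3: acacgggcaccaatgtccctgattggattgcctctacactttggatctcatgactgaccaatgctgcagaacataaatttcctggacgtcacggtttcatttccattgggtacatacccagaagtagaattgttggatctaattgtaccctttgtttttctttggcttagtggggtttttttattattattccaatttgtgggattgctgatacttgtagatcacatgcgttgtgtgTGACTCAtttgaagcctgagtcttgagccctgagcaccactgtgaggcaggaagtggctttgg

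The Lfng window was rich in G and C, at 67.7%, which is the 88.4 percentile of the 33469 windows of the same length, whose median was 51.7%. It held 2 TGGGAA matches, the first on the opposite strand with its leftmost base at -150 from the start and the second on the gene's strand at -123, and 1 CACGTG match at -127 that overlaps the second. Of all windows, 25.7% held at least 1 TGGGAA and 3.85% held 2 or more, and 6.42% held CACGTG. The Eogt window had a GC content of 41.3%, the 14.8 percentile. It held 2 TGANTCA matches, TGACTCA at -139 and TGAATCA at -85. Only TGACTCA has the C or G in the middle that the strict AP-1 motif requires. Of all windows, 7.33% held at least 1 TGANTCA and 0.415% held 2 or more. TGGGAA and CACGTG are not among the letters of the Eogt window on either strand.

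RefSeq gave St3gal4 3 starts. Start 1 had a GC content of 49%, the 39.8 percentile, and 1 TGGGAA match on the opposite strand at -214. Start 3 had 43.7%, the 20.9 percentile, and 1 TGANTCA match at -13. Start 2 (chr8:41722298-41722597) was not printed because it held none of the 5 motifs. Its GC content was 72%, the 94.1 percentile, near the 67.7% of the Lfng window. Counts were made per gene, so they do not tell which start was used. Neither TGACGTCA, present in 1.83% of windows, nor GCGTGGGCG, present in 0.544%, was found in any of the 5 windows. A match is a run of letters and was not tested as a binding site, and Mfng, named below, has no window in the table.

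**Figure D1:**
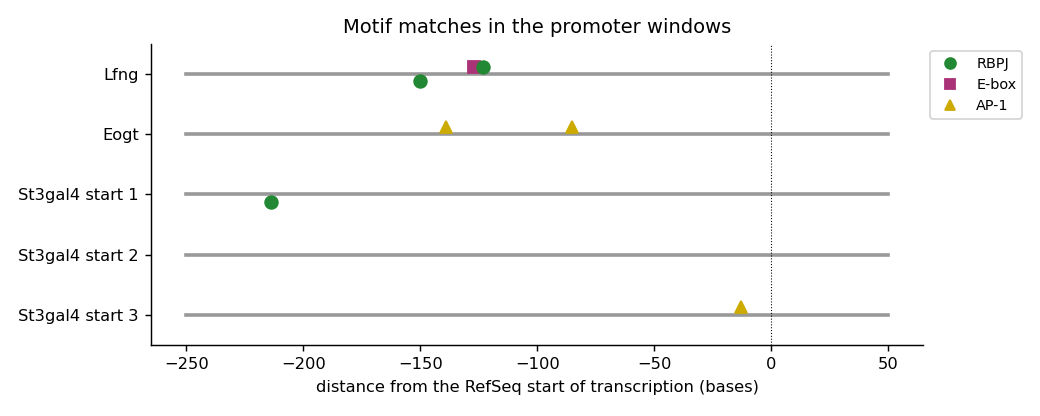
Motif matches in the 5 promoter windows, plotted by distance in bases from the RefSeq start of transcription. TGGGAA marks lie above the line on the gene's strand and below it on the opposite strand. CACGTG and TGANTCA match both strands alike, so their marks are always above the line and show no strand. The Lfng matches lie between -150 and -123 and those of Eogt at -139 and -85, and start 2 of St3gal4 has none. AP-1 in the key stands for any TGANTCA match.

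Eogt had the lowest counts of the 3 and the largest difference. Its counts were 106, 100 and 88 in C2, C3 and C4 and 41, 39 and 44 in P8, P13 and P14. In CPM, the count scaled to library total with TMM normalization factors, they were 6.0, 6.13 and 4.74 after control odor and 2.05, 2.15 and 2.63 after PO. All 3 PO libraries were below all 3 control libraries, and the closest pair, C4 and P14, lay 1.80-fold apart. The means were 5.63 ± 0.766 CPM (SD, n = 3) after control odor and 2.28 ± 0.311 (SD, n = 3) after PO. The fitted log2 fold change was -1.30 (SE 0.22), which is 2.47-fold lower after PO.

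Lfng stood higher after PO by a smaller factor. Its counts were 960, 993 and 1061 after control odor and 1425, 1416 and 1256 after PO. In CPM, C2, C3 and C4 read 54.4, 60.9 and 57.2, and P8, P13 and P14 read 71.3, 78.1 and 75.2. The groups did not overlap, with P8 1.17-fold above C3. Group means were 57.5 ± 3.25 and 74.9 ± 3.42 CPM (SD, n = 3 each), a log2 fold change of 0.38 (SE 0.07) or 1.30-fold.

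St3gal4 was close to Lfng in level and in the size of its difference. Control libraries held 897, 901 and 964 counts and PO libraries 1458, 1208 and 1282. The CPM values were 50.8, 55.2 and 52.0 against 73.0, 66.7 and 76.7. Again every PO library was above every control library, the lowest, P13, 1.21-fold above C3. Of all tested genes, 13% were higher and 13.2% lower after PO with no overlap between groups. The means of 52.7 ± 2.29 and 72.1 ± 5.08 CPM (SD, n = 3 each) gave a log2 fold change of 0.45 (SE 0.07), or 1.37-fold.

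**Figure D2:**
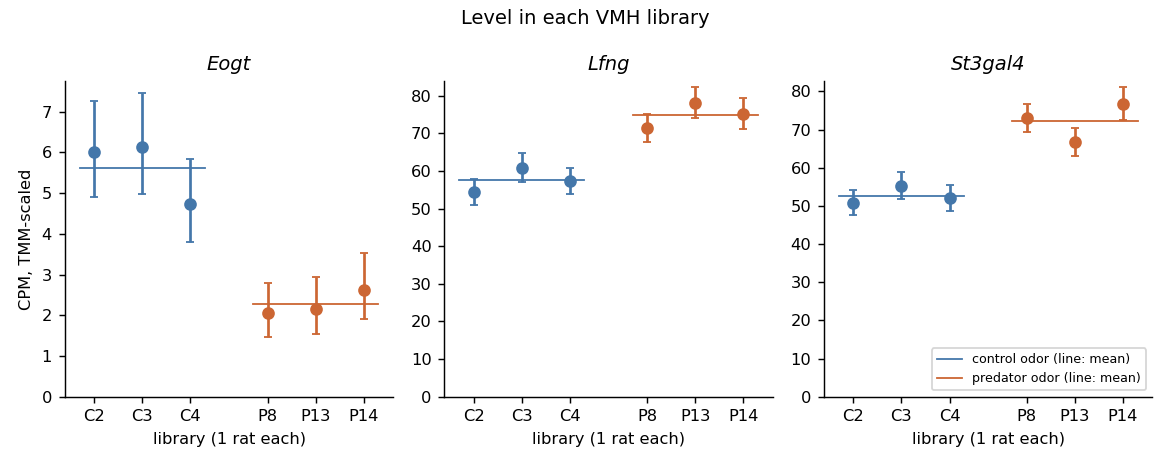
CPM of Eogt, Lfng and St3gal4 in each of the 6 libraries, with the bar on each point giving the 95% interval of the count alone and the line the group mean. Eogt lies between 4.74 and 6.13 in control libraries and between 2.05 and 2.63 in PO libraries, and for Lfng and St3gal4 each PO library is above each control library.

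The 3 differences stood at different places among those of all 16685 genes tested. Only 1.30% of genes had a larger absolute log2 fold change than Eogt, against 14.4% for St3gal4 and 18.6% for Lfng. Lfng and St3gal4 were among the steadier genes, since 17.1% and 21.9% of genes had a smaller SD of log2 CPM within groups, while 58.0% had a smaller one than Eogt. Measured in their own within-group SD, the differences spanned 6.57 SDs for Eogt, 5.14 for Lfng and 5.34 for St3gal4. These values used the contrast on which the genes were selected and are given as a description.

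Depth limited Eogt most. An exact Poisson interval on its count reached from 3.81 to 5.84 CPM in C4, the lowest control library. In P14, the highest PO library, it reached from 1.91 to 3.53. Those intervals did not meet, but Eogt was selected on this contrast, so the gap is a description with no test. Counting error alone amounts to a coefficient of variation (CV) of 10.1% for Eogt in control libraries, where the observed CV was 13.6%. In PO libraries the counting CV was 15.6% and the observed CV 13.6%. For Lfng the counting CV was 3.16% and 2.71% and the observed CV 5.65% and 4.57%, and for St3gal4 3.30% and 2.76% against 4.34% and 7.05%. Counts are reads of amplified fragments, so these intervals cover counting error only.

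The edgeR quasi-likelihood fit with Benjamini-Hochberg adjustment called 59 of the 16685 genes at an adjusted p under 0.05, or 0.354%, of which 24 (0.144%) were higher and 35 (0.21%) lower after PO. All 3 glycosyltransferases were among the calls, Lfng and St3gal4 higher and Eogt lower, and Eogt was the 1 past 1.5-fold. Among all tested genes, CPM of the groups did not overlap for 13% that were higher and 13.2% that were lower after PO. DESeq2 called 867 genes, 6.39% of the 13567 to which it gave an adjusted p, and all 3 were called. Since this contrast chose the genes, nothing is read from these counts. The calls themselves were not stable to the libraries used, as none of the 3 was called without C2, C3, C4 or P14, Lfng and St3gal4 were called without P8, and all 3 without P13.

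The differences kept their size more than their calls. Leaving out each library in turn gave log2 fold changes between -1.42 and -1.22 for Eogt, between 0.34 and 0.42 for Lfng and between 0.41 and 0.52 for St3gal4. Library size alone in place of TMM moved the median log2 fold change of all tested genes from -0.01 to -0.08, turned the split of calls to 16 higher and 87 lower, and left the directions of the 3 genes as they were.

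**Figure D3:**
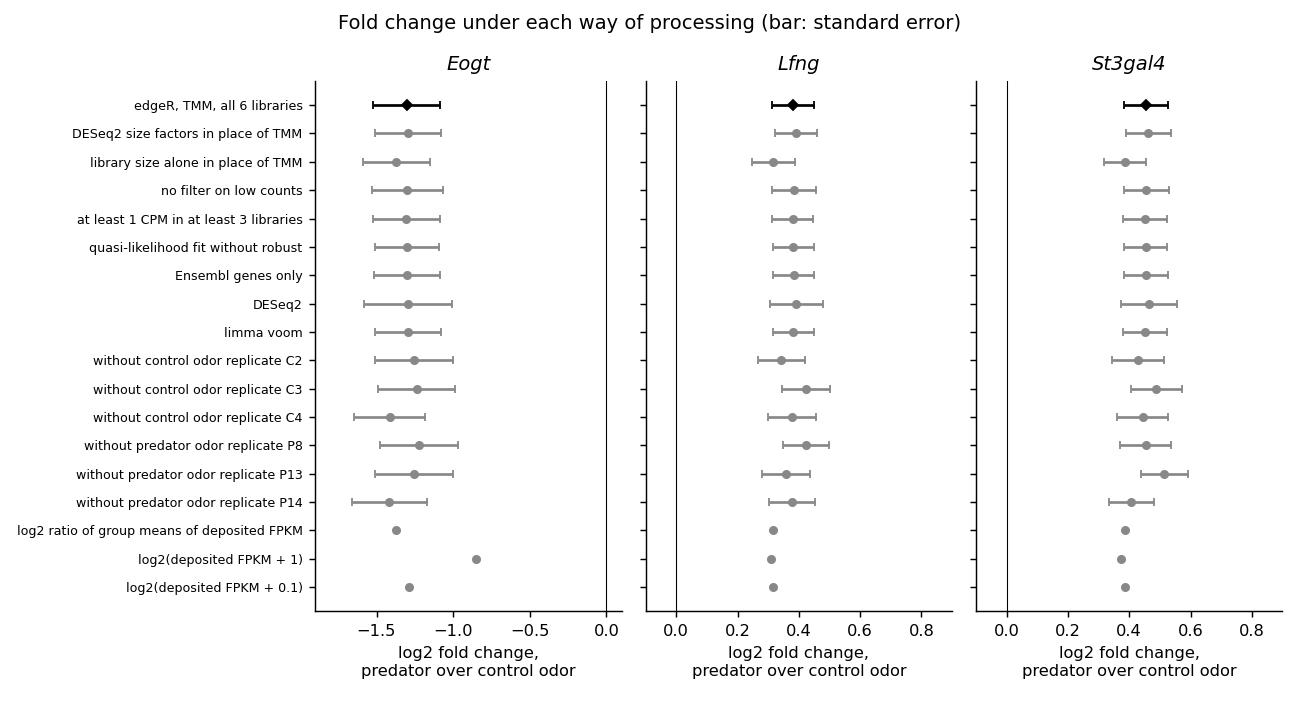
Log2 fold change of each gene, PO over control odor, under each of 18 ways of processing, with bars for the standard error where a model gave one. Eogt is below 0 under each of them, from -1.42 to -0.85, and Lfng and St3gal4 are above 0 under each.

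Levels can be compared between genes only per length, for which the deposited FPKM values, in which counts are scaled to gene length and library total, were used. The lengths used in making them were 2141 bases for Eogt, 1836 for Lfng and 2059 for St3gal4. Lfng had 32.0 ± 1.95 FPKM after control odor and 39.8 ± 2.08 after PO (SD, n = 3 each). St3gal4 had 26.1 ± 1.30 and 34.2 ± 1.86 FPKM. Eogt had 2.69 ± 0.391 and 1.04 ± 0.122 FPKM. Among tested genes, Lfng stood between the 79.7 and 84.7 percentiles and St3gal4 between 76.3 and 82.7 in every library, whereas Eogt stood between 28.5 and 32.7 in control libraries and between 14.5 and 19.1 in PO libraries.

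Lfng was above St3gal4 in FPKM in 6 of 6 libraries, by 1.10 to 1.32-fold. In each group the lowest Lfng library was above the highest St3gal4 library, at 30.4 against 27.6 FPKM in controls and 38.2 against 35.6 after PO. The order holds per length only, since Lfng had the higher count in 4 of 6 libraries. The gap to Eogt was far wider. Lfng stood at 10.6, 11.6 and 14.1 times the Eogt FPKM in C2, C3 and C4 and at 40.5, 42.3 and 33.3 times in P8, P13 and P14. St3gal4 to Eogt ratios were 8.80, 9.37 and 11.4 in controls and 37.0, 32.2 and 30.3 after PO. The ratios of the PO libraries lay above those of the control libraries for both pairs, with no overlap. That follows from the opposite differences on which the genes were selected, so it adds nothing to them.

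Mfng, manic fringe (ENSRNOG00000008133), catalyzes the same step as Lfng. It was named by the list of EGF repeat glycosylation, and of the 108 other genes on the 10 pathway lists it is the 1 that could be paired with an ID. The remaining 107, Notch receptors, ligands and targets and the other sialyltransferases among them, have no ID in the sources used here and were not analysed. Mfng held 272, 181 and 172 counts in controls and 397, 339 and 350 after PO. Its CPM values were 15.4, 11.1 and 9.27 against 19.9, 18.7 and 20.9, with C2 well above the other control libraries. The groups did not overlap, which also held for 13% of all tested genes in the direction higher after PO. The log2 fold change was 0.73 (SE 0.17), from 11.9 ± 3.15 to 19.8 ± 1.12 CPM (SD, n = 3 each). It did not pass edgeR's test, with an adjusted p of 0.0697 and an unadjusted p of 0.000981, while DESeq2 gave an adjusted p of 0.00321. The count of related genes called was therefore 0 of 1 by edgeR, which called 0.354% of all tested genes. By DESeq2, which called 6.39%, it was 1 of 1. Mfng was also among the genes of the deposited table of calls on these libraries, so it is not independent of the choice of Lfng. Nothing is read from the count for that reason.

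Taken as a fringe pair, Lfng and Mfng summed to 39.3, 40.6 and 36.8 FPKM in controls and to 49.2, 52.7 and 50.5 after PO. Rfng, radical fringe, was on the same list but had no ID. It is missing from the sum and from the shares below, which are not those of all fringe enzymes. Every PO sum was above every control sum, with means of 38.9 ± 1.96 and 50.8 ± 1.74 (SD, n = 3 each). That had to be so, because each gene on its own was higher in every PO library, and both come from calls on these libraries. The share of the sum held by Lfng was 77.3%, 84.1% and 85.6% in controls and 77.6%, 80.1% and 77.6% after PO, and these shares overlapped between groups. Lfng to Mfng ratios of 3.40, 5.29 and 5.95 in controls and 3.46, 4.03 and 3.46 after PO overlapped as well. The spread of the ratio was wider in controls (SD 1.32) than after PO (SD 0.327), and C2 was the control library nearest to the PO libraries.

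Extl3 (ENSRNOG00000013581), an N-acetylglucosaminyltransferase that starts heparan sulfate chains, is on none of the lists and was added after its values were seen. It shares with Eogt, Lfng, Mfng and St3gal4 the annotation for transfer of glycosyl groups. Counts of 291, 243 and 244 in controls and 209, 167 and 142 after PO gave 16.5, 14.9 and 13.2 CPM against 10.5, 9.21 and 8.50. The groups did not overlap, and Extl3 was lower after PO with a log2 fold change of -0.66 (SE 0.14). Of all tested genes, 13.2% were lower after PO with no overlap. Per length, Mfng was above Extl3 in 6 of 6 libraries, at 1.27 to 1.685-fold in controls and 3.42 to 4.44-fold after PO. That order holds per length only, since Mfng had the higher count in 3 of 6 libraries. The FPKM ranges of Mfng and Extl3 were 5.29 to 8.92 and 4.16 to 5.30 in controls. After PO they were 10.5 to 11.3 and 2.55 to 3.23. Extl3 over Eogt was 1.63 to 1.86 in controls and 2.17 to 3.42 after PO. Mfng, Extl3 and Eogt were all among the authors' calls on these libraries, so the wider gaps after PO are a description with no test.

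**Figure D4:**
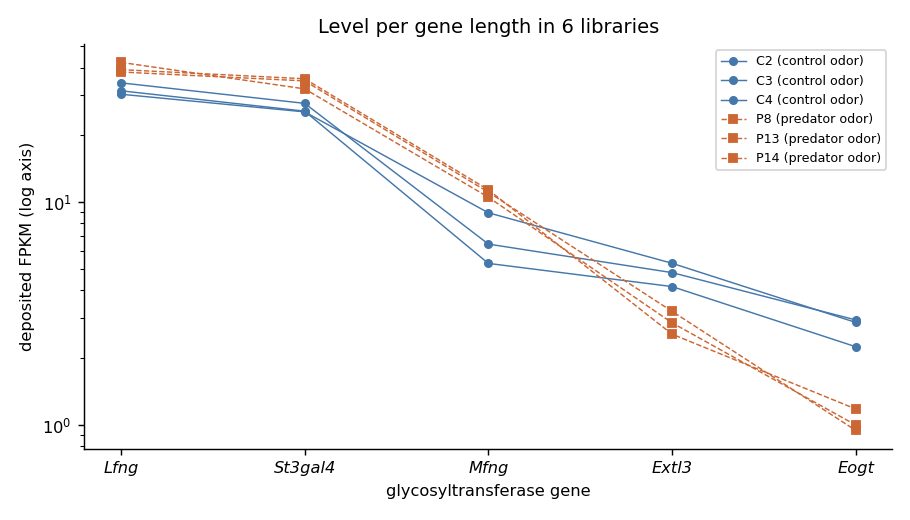
Deposited FPKM on a log axis for 5 glycosyltransferase genes in each of the 6 libraries, lines joining the values of 1 library. The order Lfng, St3gal4, Mfng, Extl3, Eogt is the same in 6 of 6 libraries. The PO lines start above and end below the control lines. All 5 genes come from calls on these libraries, so that crossing follows from how they were found.

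The deposited term table, which lists under each term only genes that were called in these libraries, places these enzymes in shared terms. Eogt, Lfng and Mfng stood under O-linked glycosylation, Lfng and Mfng under O-linked fucosylation, and Eogt and Lfng under acetylglucosaminyltransferase activity, while St3gal4 was the only one of them under sialylation. Of the called genes, the term for regulation of Notch signaling listed Lfng and Mfng with Mmp14 (ENSRNOG00000010947), a membrane-bound matrix metalloproteinase, which was added after its values were seen. Mmp14 had 31.5 ± 2.40 CPM in controls and 18.5 ± 5.53 after PO (SD, n = 3 each), a log2 fold change of -0.76 (SE 0.20). Eogt was not under that term. Mt3 (ENSRNOG00000018958), metallothionein 3, listed with them under protein glycosylation, binds zinc and copper and transfers no sugar. It had 538 ± 16.6 CPM in controls and 698 ± 62.7 after PO (SD, n = 3 each). Mmp14, Mt3 and Extl3 are named because the authors called them in this same contrast, so their differences are a description with no test. The edgeR fit used here called Mt3 (adjusted p 0.0481) but neither Extl3 (0.063) nor Mmp14 (0.105).

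Few markers of other cell types could be read, and those few carry a symbol because the deposited table of calls on these libraries, or the paper's list of genes from the same contrast, names them. That they differed between the groups was therefore fixed by how they were found, and the markers without an ID were not read. Leptomeningeal fibroblast markers with an ID were 5 of 10 (Col1a1, Col1a2, Gjb2, Igfbp2 and Slc6a13), and their summed level was 111.4 to 167.5 CPM in controls and 29.5 to 63.5 after PO. Their levels are given as a description, with no count of calls. Olig2, which specifies oligodendrocytes and their precursors and is the 1 of 6 precursor markers with an ID, lay between 43.3 and 50.8 CPM in controls and between 68.9 and 71.6 after PO. Folr1, the 1 of 6 choroid plexus markers with an ID, lay between 3.77 and 5.15 CPM in controls and between 8.11 and 17.2 after PO. The other 9 marker lists had no gene with an ID. The part of these cells in the values of Eogt, Lfng and St3gal4 was not tested.

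The 3 genes were each set beside the genes with the most similar course over the 6 libraries, by the root mean square (RMS) difference of log2 CPM centred on each gene's own mean. Only the 168 tested genes with a symbol were candidates, and most of them have one because they were called in these libraries, so closeness in the contrast is built in. For Eogt the closest was Dab2, an endocytic adaptor, at an RMS difference of 0.175, with 6.24 ± 0.906 CPM in controls and 3.06 ± 0.166 after PO. Sgpp1, a sphingosine-1-phosphate phosphatase, followed at 0.241 and Nktr, a cyclophilin-related protein, at 0.295. All 3 had smaller log2 fold changes than Eogt, at -1.03, -0.90 and -0.85. Of all tested genes, with or without a symbol, 1 was closer to Eogt than Dab2, 8 than Sgpp1 and 24 than Nktr.

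For Lfng the closest was Nkain4, a protein that interacts with the sodium pump, at 0.033, and no other tested gene, with or without a symbol, was closer. Atf5, a stress-responsive transcription factor, came at 0.0339 and Ppp1r15a, which directs dephosphorylation of eIF2 alpha, at 0.0508. For St3gal4 the closest were Ddt, a relative of the cytokine MIF, at 0.048, Sirt2, a deacetylase abundant in oligodendrocytes, at 0.0491, and Gamt, an enzyme of creatine synthesis, at 0.0537. Among all tested genes, 1 was closer to St3gal4 than Ddt, 3 than Sirt2 and 6 than Gamt. Lfng and St3gal4 were 0.0946 apart from each other, against 0.32 for Lfng and Mfng and 0.858 for Eogt and Lfng. Lfng was highest in P13, the PO library in which St3gal4 was lowest.

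**Figure D5:**
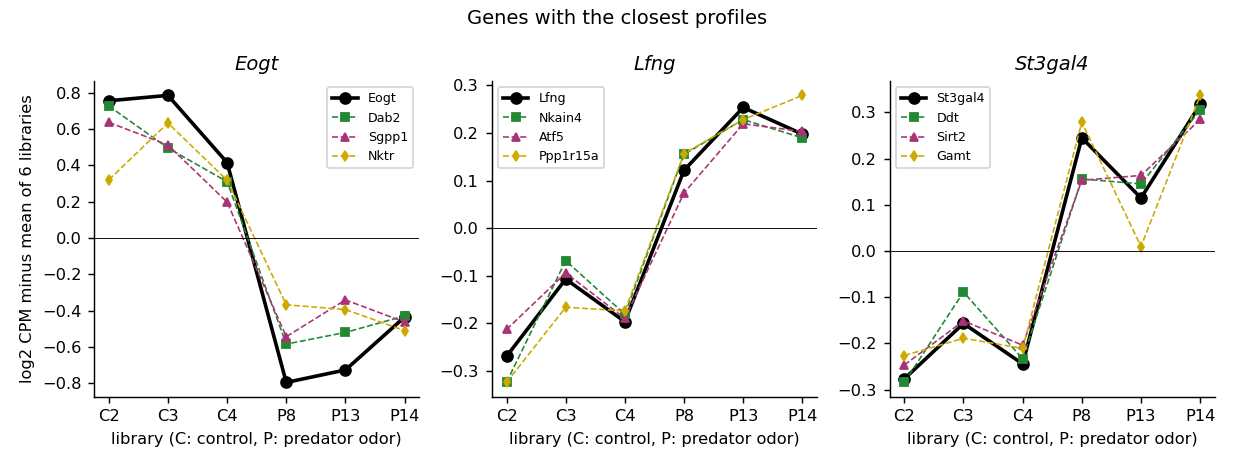
Log2 CPM of each gene minus its mean over the 6 libraries, for Eogt, Lfng and St3gal4 (black) and the 3 named genes closest to each, lines serving only to join the points of a gene. Eogt and its neighbours are above 0 in C2, C3 and C4 and below 0 in P8, P13 and P14, and the other panels show the reverse.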

How the data were processed

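RNA from VMH micropunches of 6 rats was read, and libraries were grouped by the submitters' labels, which give no batch or pairing. As the methods state, the authors aligned reads with HISAT2 2.1.0-beta to Rnor_5.0 (Ensembl 79) and deposited raw counts per gene made with HTSeq 0.6.1. CASAVA 1.8 and DESeq stand in the submitters' processing notes too. Deposited FPKM values are the authors' scaling of those counts by gene length. Whether counting used strand is unknown from the sources used, so reads of overlapping or antisense genes may be included. The authors' own tables of called genes hold fold changes and p-values that were not used, and only their gene names and annotation terms were read.

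A robust quasi-likelihood fit in edgeR 4.0.16 (R 4.3.3), after filterByExpr and with TMM factors, covered 16685 genes, each library being a separate rat. DESeq2 1.42.0, limma 3.58.1 (voom), other filters, other scalings, pseudocounts on FPKM and each library left out were alternatives. The scripts were tested on simulated data. Figures were drawn with Matplotlib 3.10.9, and SciPy 1.17.1, NumPy 2.4.6 and pandas 2.3.3 under Python 3.11.15 made the tables. Library totals lay between 15835375 and 20316213 counts.

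The genes, the lists and the motifs were chosen with earlier results of these data known. Symbols were available for 170 of 29039 features, from the authors' table of called genes (144), the paper and Entrez IDs matched to RefSeq. The genes to be named were the 3 enzymes, their closest relatives and the 3 named genes with the closest profile to each enzyme. Per pathway list, they were the genes that edgeR called or, with fewer than 4 calls, the 4 of lowest p. For marker lists the summed level was to be given. Of the closest relatives and the other pathway genes, only Mfng had an ID and was read. Extl3, Mt3 and Mmp14 were added after their values were seen. Sequences came from RefSeq windows.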

Additional observations from a re-analysis of the deposited data

How the results depend on the processing

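The count of genes called, 59 by edgeR, depended strongly on the processing. It was 103 with library size alone in place of TMM (16 higher and 87 lower after PO, against 24 and 35), 433 with no filter on low counts (247 and 186), 2 without the robust option (2 and 0), 867 with DESeq2 (581 and 286), 3 with limma voom (2 and 1) and 26 with a 1.5-fold change required (6 and 20), so the direction with more calls turned with the setting. Leaving out 1 library in turn gave between 9 and 266 calls, 9 without C2, C4 or P14 and 266 without P13 (187 higher and 79 lower). It moved by less than 1.5 times with DESeq2's size factors (60), a minimum of 1 CPM in 3 libraries (54) and Ensembl genes only (61).

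The count of the 3 enzymes called, tallied under the same settings after the data were seen, went from 3 to 0 with limma voom and without the robust option, to 2 with library size alone, and lay between 0 and 3 with 1 library left out. The count of related genes called, 0, became 1 with no filter and 1 with DESeq2. The log2 fold change of Eogt moved from -1.30 to -0.85 on log2(FPKM + 1), since its FPKM lies near the pseudocount, and otherwise lay between -1.42 and -1.22. Those of Lfng (0.31 to 0.42) and St3gal4 (0.37 to 0.52) moved by less than the replicate spread under each of 17 alternatives. No paired analysis was possible because the groups share no replicate number. Depth limits Eogt most, which had 39 to 106 counts per library.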
